A study of Chlorocebus sabaeus with 32 samples.

Results

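Microglia, the resident macrophages of the brain, express a set of genes at rest that includes CX3CR1, P2RY12, TMEM119, CSF1R, AIF1, TYROBP, ITGAM, TREM2, LAPTM5 and LY86. These 10 genes were taken by name from a table of read counts with 33994 gene rows. Of them, 9 had a row, and AIF1, for which no row was found by symbol or by gene number, was not analysed here. The counts come from hippocampus of 32 vervet monkeys (Chlorocebus sabaeus), each labelled as under 1 year of age, and were obtained by sequencing total RNA depleted of ribosomal RNA. The series examines developmental change in the transcriptome of this brain region, and the labels used here give no treatment, genotype, sex or finer age. Each library has its own title and was taken as 1 animal, so p-values measure the spread between libraries. Titles differ in their first 4 digits, which sort the libraries into prefix-2010 (16 libraries), prefix-2011 (2 libraries) and prefix-2009 (14 libraries). A second number in the title was above 20000 in 9 libraries of prefix-2010 and in both of prefix-2011, and below it in the other 7 of prefix-2010 and in all 14 of prefix-2009. The labels do not say what either number stands for.

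Microglia colonise the brain early in development and stay in contact with neurons, synapses and newborn cells throughout life. Their survival depends on the receptor CSF1R, their contact with neurons on receptors such as CX3CR1 and P2RY12, and their clearance of lipids and debris on the receptor TREM2 with its adaptor TYROBP. In the young hippocampus they are known for removing apoptotic newborn neurons and for trimming synapses. DCX, against which the microglial genes were set, encodes a microtubule-binding protein of young, migrating neurons and is widely used as a marker of them.

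Reads assigned to genes numbered from 9347635 to 19673621 per library, so a count of 0 would allow a level of up to 0.152 to 0.321 CPM (counts scaled to a common library size), counting error only. Reads outside gene features made up 56.9% ± 3.40 of reads in prefix-2010 (SD, n = 16) and 57.5% ± 3.86 in prefix-2009 (SD, n = 14). The library with the fewest gene counts, replicate 1 of prefix-2009, also had the highest share of reads outside gene features, 67.1%. It had the highest CPM of all 32 libraries for CX3CR1, P2RY12, TMEM119, CSF1R and LAPTM5. Results are also given without it where they change, except correlations within prefix-2009, which were not computed without it. Annotated loci overlap P2RY12 (MED12L), ITGAM and LY86, and no source used here states whether counting used strand, so reads of these 3 genes may include reads of a neighbour. Every microglial gene was detected in every library, and the lowest count of any of them was 16, for TMEM119. Counts come from whole tissue, in which fewer microglia and less RNA per microglial cell cannot be told apart. Several of the genes are also expressed by macrophages at the brain's borders and by blood monocytes. Of 7 lymphocyte genes, CD3D, MS4A1 and NKG7 had a median count of 0 over all 32 libraries. So did S100A12 and FCN1 of 6 monocyte and neutrophil genes. The 7 lymphocyte genes summed to 3.03 to 9.40 CPM in prefix-2010 and to 3.46 to 8.85 CPM in prefix-2009. The 6 monocyte and neutrophil genes summed to 133.4 to 340.5 CPM and to 138.1 to 290.3 CPM in the same order. Only 1 of these 6 passed the count filter for the slope on DCX, so their sum is not a measure of blood cells. The 3 blood genes HBB, HBA and ALAS2 summed to 0.517 to 10.98 CPM in prefix-2010 and to 0.470 to 11.6 CPM in prefix-2009.

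Levels are CPM after TMM scaling, edgeR's correction for library composition. They are not divided by transcript length, so they were compared between libraries and not between genes. CX3CR1, the receptor for the neuronal chemokine fractalkine, had 6.39 CPM in the lowest, 16.6 in the median and 30.3 in the highest library of prefix-2010. The 2 libraries of prefix-2011 had 11.8 and 14.1 CPM, and those of prefix-2009 spanned 14.4 to 39.5 CPM with a median of 18.9. The groups overlapped widely, and 3 libraries of prefix-2010 lay below the lowest of prefix-2009. CX3CR1 was the most variable of the 9 genes. Its standard deviation was 0.53 on the log2 CPM scale over 32 libraries, against a median of 0.26 over all genes tested, and its highest level was 6.18 times its lowest.

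P2RY12, a purinergic receptor that steers microglial processes towards nucleotides, had 37.8 to 90.6 CPM in prefix-2010, with a median of 72.2. Prefix-2011 had 78.6 and 89.9 CPM, and prefix-2009 had 54.9 to 104.5 CPM with a median of 71.8. The medians of prefix-2010 and prefix-2009 lay within 1 CPM of each other. TMEM119, a membrane protein used to tell microglia from other macrophages, was the gene with the fewest reads, 16 to 67 counts per library. It had 1.05 to 3.31 CPM in prefix-2010 with a median of 2.43, 2.35 and 2.34 CPM in prefix-2011, and 1.60 to 4.14 CPM in prefix-2009 with a median of 2.34. For both genes 7 of 16 libraries of prefix-2010 lay below the median of prefix-2009.

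CSF1R, the receptor for the survival factors CSF1 and IL-34, had 62.0 to 113.8 CPM in prefix-2010 with a median of 78.7. The libraries of prefix-2011 had 60.004 and 68.2 CPM, and those of prefix-2009 had 72.3 to 136.1 CPM with a median of 96.0. In prefix-2010, 13 of 16 libraries lay below the median of prefix-2009, though the ranges overlapped. ITGAM, the alpha chain of complement receptor 3, had 13.99 to 23.8 CPM in prefix-2010 with a median of 16.1. Prefix-2011 had 13.7 and 16.1 CPM, and prefix-2009 had 15.6 to 24.3 CPM with a median of 18.5. For ITGAM, 15 of 16 libraries of prefix-2010 lay below the median of prefix-2009, the exception being replicate 16 of prefix-2010 at 23.8 CPM.

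TREM2 binds lipids and lipoproteins and signals through the adaptor TYROBP. TYROBP had 1.79 to 5.20 CPM in prefix-2010 with a median of 3.30, 2.41 and 2.94 CPM in prefix-2011, and 2.69 to 4.82 CPM in prefix-2009 with a median of 3.46. TREM2 had 4.83 to 10.8 CPM in prefix-2010 with a median of 6.53, 6.68 and 8.48 CPM in prefix-2011, and 4.95 to 9.07 CPM in prefix-2009 with a median of 6.82. For TYROBP, 6 libraries of prefix-2010 lay below every library of prefix-2009, and for TREM2 1 did. The log2 ratio of TREM2 to TYROBP within a library spread more widely in prefix-2010, at 1.18 ± 0.47 (SD, n = 16), than in prefix-2009, at 0.93 ± 0.25 (SD, n = 14). The difference in spread was not tested.

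LAPTM5, a lysosomal membrane protein of blood-derived cells and microglia, had 6.32 to 15.5 CPM in prefix-2010 with a median of 11.3. Prefix-2011 had 8.13 and 12.1 CPM, and prefix-2009 had 10.3 to 20.8 CPM with a median of 15.3. Of the 16 libraries of prefix-2010, 14 lay below the median of prefix-2009, and 7 of 14 libraries of prefix-2009 lay above every library of prefix-2010. LY86, also called MD-1, is a secreted partner of the Toll-like receptor homologue CD180. It had 2.62 to 6.65 CPM in prefix-2010 with a median of 4.38, 5.15 and 5.54 CPM in prefix-2011, and 5.10 to 10.3 CPM in prefix-2009 with a median of 7.97. Its groups were the most separated of the 9. All 16 libraries of prefix-2010 lay below the median of prefix-2009, 12 of them below its lowest library, and 11 of 14 libraries of prefix-2009 lay above the highest of prefix-2010.

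**Figure D1:**
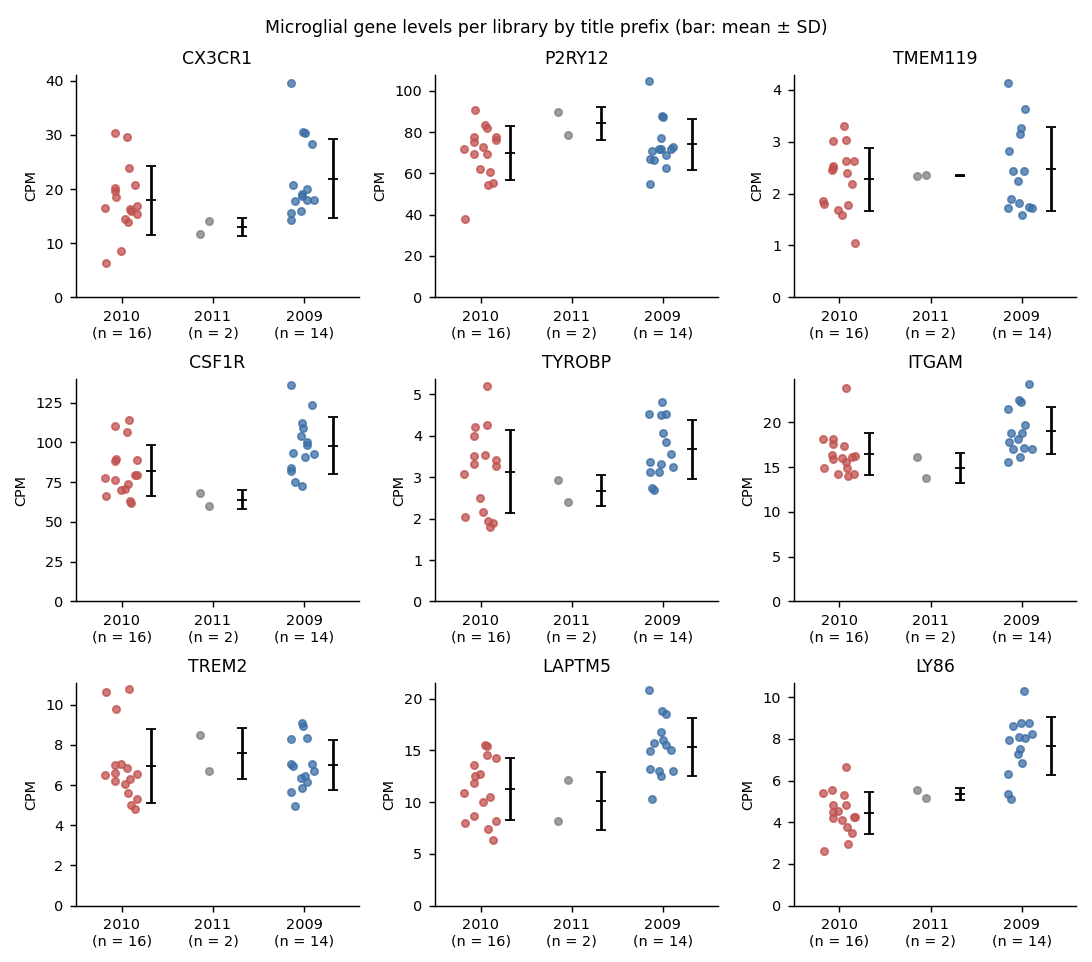
Level of each of the 9 microglial genes (CPM, axis from 0) in every library, by title prefix, with prefix-2010 (16 libraries) at left, prefix-2011 (2) and prefix-2009 (14); points are libraries and the bar beside them is the mean ± SD. LY86 separates best, with a mean of 4.45 CPM in prefix-2010 and 7.65 CPM in prefix-2009, while TREM2 averages 6.94 CPM in prefix-2010 and 6.99 CPM in prefix-2009.

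LY86 and LAPTM5 fell in prefix-2010 relative to prefix-2009 in edgeR's quasi-likelihood test across 23977 genes, and the other 7 genes did not pass it. LY86 averaged 4.45 ± 1.01 CPM in prefix-2010 (SD, n = 16) and 7.65 ± 1.40 CPM in prefix-2009 (SD, n = 14), a log2 difference of -0.78 ± 0.11 (SE) with an adjusted p of 9.5e-05. LAPTM5 averaged 11.3 ± 2.99 CPM in prefix-2010 and 15.3 ± 2.81 CPM in prefix-2009, a log2 difference of -0.43 ± 0.12 with an adjusted p of 0.0156. Thus 2 of 9 genes were lower and 0 were higher, where 5.29% of all genes tested were lower and 7.07% higher. The median log2 difference was -0.22 over the 9 genes and 0.01 over all genes. With scaling by library totals in place of TMM, 2295 of all genes were called higher and 977 lower, against 1696 higher and 1268 lower with TMM, and 2 of the 9 genes were again lower.

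ITGAM and CSF1R lay near the threshold. ITGAM averaged 16.5 ± 2.38 CPM in prefix-2010 and 19.1 ± 2.64 CPM in prefix-2009, with a log2 difference of -0.21 ± 0.07 and an edgeR adjusted p of 0.0542. CSF1R averaged 82.3 ± 16.1 CPM in prefix-2010 and 98.05 ± 18.01 CPM in prefix-2009, with a log2 difference of -0.25 ± 0.09 and an edgeR adjusted p of 0.0760. Without replicate 16 of prefix-2010, the library with the highest ITGAM, CSF1R, TYROBP, TREM2 and LY86 of prefix-2010, both passed, with edgeR adjusted p-values of 0.00754 for ITGAM and 0.0306 for CSF1R. With DESeq2, ITGAM passed as well, at an adjusted p of 0.0364.

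The remaining 5 genes had intervals that included 0. The log2 difference was -0.28 ± 0.17 for CX3CR1, -0.22 ± 0.14 for TYROBP, -0.11 ± 0.15 for TMEM119 and -0.08 ± 0.09 for P2RY12, with edgeR adjusted p-values between 0.296 and 0.682. For TREM2 it was -0.0042, with a 95% interval of -0.22 to 0.22 and an edgeR adjusted p of 0.987. DCX rose in prefix-2010 in the same fit, at 74.3 ± 22.4 CPM against 46.2 ± 9.12 CPM in prefix-2009, a log2 difference of 0.69 ± 0.12 with an adjusted p of 0.000807. With DCX added to the model, 0 of the 9 genes were called, LY86 had a log2 difference of -0.44 at an edgeR adjusted p of 0.257, and 1 of all genes was called. Restricted to the 21 libraries with low title numbers, LY86 and LAPTM5 both still passed, with log2 differences of -0.75 and -0.61. LY86 without replicate 1 of prefix-2009 had a log2 difference of -0.81 and LAPTM5 one of -0.39, and both passed.

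Libraries with more DCX had less of 5 of the 9 microglial genes. In edgeR's quasi-likelihood test of a slope on DCX over all 32 libraries, LY86, LAPTM5, TYROBP, CSF1R and ITGAM fell as DCX increased, and none of the 9 rose. Of all 22524 genes tested, 12.3% fell with DCX, and the median slope was -0.19 over the 9 genes and 0.00 over all genes. With scaling by library totals, 3510 genes rose and 2194 fell, against 2699 and 2766 with TMM, and 5 of the 9 genes again fell. Slopes are log2 changes per standard deviation of DCX, which is 0.49 on the log2 CPM scale.

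The slope was -0.39 ± 0.05 for LY86 (SE, edgeR adjusted p = 1.8e-06), -0.29 ± 0.05 for LAPTM5 (edgeR adjusted p = 9.6e-05) and -0.29 ± 0.06 for TYROBP (edgeR adjusted p = 0.000249). It was -0.20 ± 0.04 for CSF1R (edgeR adjusted p = 0.000712) and -0.13 ± 0.03 for ITGAM (edgeR adjusted p = 0.00356). These 5 stayed past the threshold whichever library was left out. CX3CR1 had a slope of -0.19 ± 0.09, TMEM119 of -0.14 ± 0.07 and P2RY12 of -0.08 ± 0.05, with edgeR adjusted p-values of 0.109, 0.166 and 0.214. TREM2 had a slope of -0.03 ± 0.05 with a 95% interval of -0.14 to 0.08. CX3CR1 thus had a slope close to that of CSF1R with a larger standard error. It passed with the share of reads outside gene features as a covariate, at -0.19 (edgeR adjusted p = 0.0434), and against the mean z-score of 10 immature neuron genes, DCX among them, in place of DCX, at -0.30 per standard deviation of that score (edgeR adjusted p = 0.00233). In other settings the slope of CX3CR1 was smaller, at -0.03 among libraries with low title numbers (edgeR adjusted p = 0.916) and -0.10 with title prefix as a factor (edgeR adjusted p = 0.722). With title prefix as a factor in the model, 2 of the 9 genes fell with DCX, TYROBP at -0.37 (edgeR adjusted p = 0.00371) and LY86 at -0.27 (edgeR adjusted p = 0.00970). LAPTM5 then had -0.24 (edgeR adjusted p = 0.0553), CSF1R -0.17 (edgeR adjusted p = 0.109) and ITGAM -0.10 (edgeR adjusted p = 0.274).

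By correlation of log2 CPM, LY86, TYROBP, LAPTM5, CSF1R and ITGAM again passed. Pearson's r with DCX over 32 libraries was -0.78 for LY86, -0.70 for TYROBP and -0.70 for LAPTM5, each at a permutation p of 1e-05, the smallest that the permutations can give, and an adjusted p of 0.000216 over 19949 genes. It was -0.63 for CSF1R (permutation p = 0.00017, adjusted 0.00187) and -0.57 for ITGAM (permutation p = 0.00074, adjusted 0.00578). Of all genes, 12.1% were negatively correlated with DCX at an adjusted p under 0.05. Spearman's rho was -0.75 for LY86 (permutation p = 1e-05), -0.68 for LAPTM5 (permutation p = 4e-05), -0.57 for CSF1R (permutation p = 0.00073), -0.55 for TYROBP (permutation p = 0.00129) and -0.54 for ITGAM (permutation p = 0.00143). Without the 2 libraries farthest from the median DCX, replicates 15 and 12 of prefix-2010, r was -0.74 for LY86, -0.67 for LAPTM5, -0.64 for TYROBP, -0.59 for CSF1R and -0.55 for ITGAM.

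The other 4 genes had weaker correlations with DCX that did not pass. Pearson's r was -0.39 for CX3CR1, -0.32 for P2RY12, -0.30 for TMEM119 and -0.105 for TREM2, with permutation p-values of 0.0249, 0.0744, 0.101 and 0.570 and adjusted p-values of 0.0819 to 0.720. Spearman's rho was -0.30, -0.06, -0.26 and -0.06 in the same order of genes, with permutation p-values of 0.0915, 0.742, 0.147 and 0.747. Without replicates 15 and 12 of prefix-2010, r was -0.24 for CX3CR1, -0.16 for P2RY12, -0.20 for TMEM119 and -0.25 for TREM2. For P2RY12 the relation rests on few libraries, since r was -0.15 without replicate 15 of prefix-2010 alone. The largest gap in DCX between neighbouring libraries was 0.137 of its range and set 7 libraries apart from the rest. Whether libraries form clusters of DCX was not tested.

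**Figure D2:**
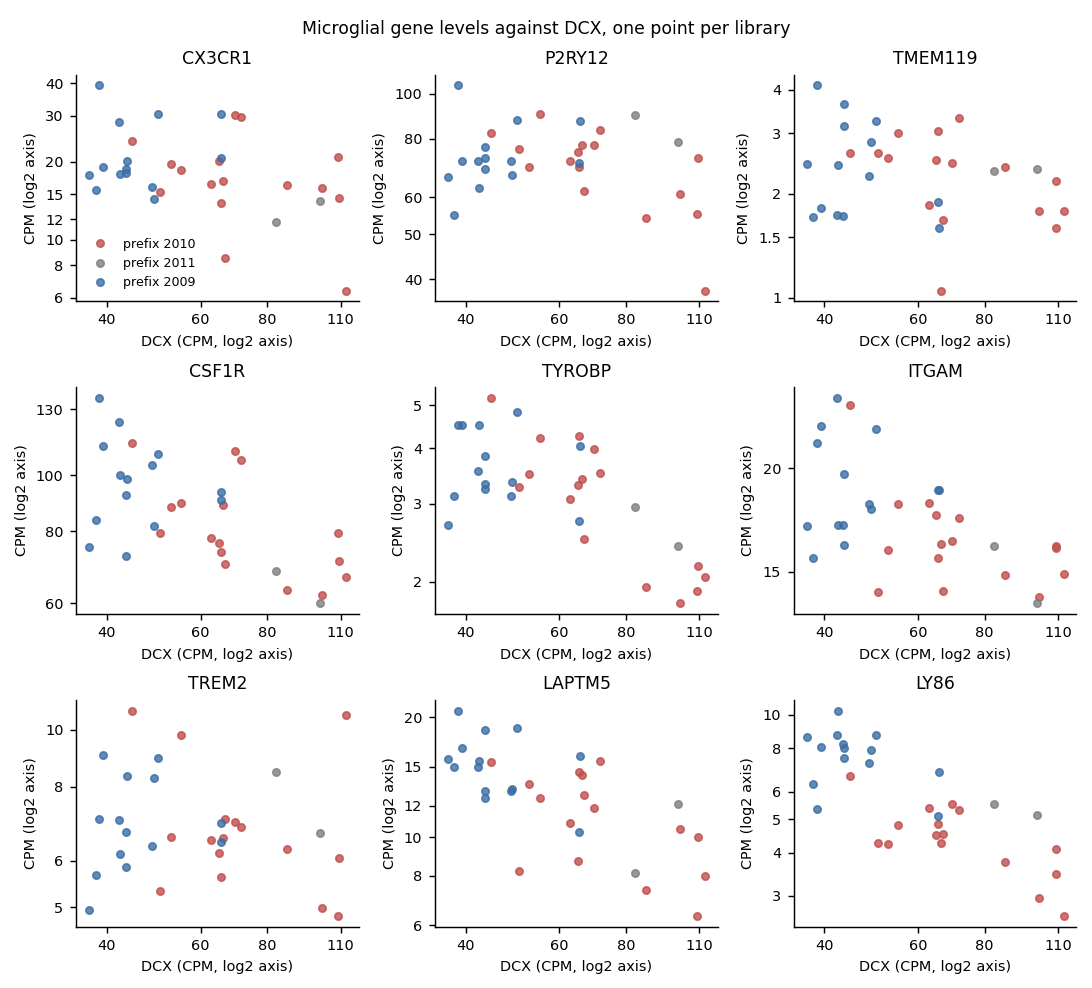
Level of each microglial gene against DCX, one point per library, both in CPM on log2 axes, coloured by title prefix. LY86, with r = -0.78, and TYROBP and LAPTM5, with r = -0.70 each, decline from left to right, whereas TREM2, with r = -0.105, has high values at both ends of the DCX range.

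Within prefix-2010, TYROBP, LY86 and P2RY12 fell with DCX. In a fit of both prefixes with a slope for each, TYROBP had a slope of -0.48 ± 0.09 (SE) in prefix-2010 with an edgeR adjusted p of 0.00118, LY86 had -0.30 ± 0.08 (edgeR adjusted p = 0.0239) and P2RY12 had -0.23 ± 0.07 (edgeR adjusted p = 0.0453). Of 23452 genes tested, 2.52% fell in prefix-2010, beside 3 of the 9 genes. The calls of LY86 and P2RY12 depended on single libraries. In fits added after seeing the data, TYROBP alone passed without replicate 15 of prefix-2010, the library with the most DCX, and again without replicate 16, the library of that prefix with the least. Without replicate 15, LY86 had -0.25 (edgeR adjusted p = 0.0997) and P2RY12 -0.16 (edgeR adjusted p = 0.195), and without replicate 16, LY86 had -0.26 (edgeR adjusted p = 0.132) and P2RY12 -0.25 (edgeR adjusted p = 0.0913). TYROBP had -0.50 without replicate 15 (edgeR adjusted p = 0.00427) and -0.46 without replicate 16 (edgeR adjusted p = 0.0128). Without replicate 1 of prefix-2009 all 3 genes passed. LAPTM5 had a slope of -0.27 ± 0.09 (edgeR adjusted p = 0.0763) and CSF1R of -0.19 ± 0.07 (edgeR adjusted p = 0.137). With the share of reads outside gene features as a covariate, CSF1R passed as well, at -0.26 (edgeR adjusted p = 0.00326). In prefix-2009, 0 of the 9 genes passed edgeR's test, while 0.32% of all genes passed there in either direction. None of the 9 had an unadjusted p under 0.05 there, beside 2112 of 23452 genes. The steepest slopes in prefix-2009 were -0.25 ± 0.23 for TMEM119, -0.21 ± 0.15 for LAPTM5 and -0.20 ± 0.13 for LY86.

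DCX spanned a narrower range in prefix-2009, 37.1 to 65.7 CPM, than in prefix-2010, 44.6 to 112.5 CPM, and slopes in prefix-2009 had larger standard errors. The difference of slopes between prefixes, prefix-2010 minus prefix-2009, was tested in the same fit. It was -0.43 ± 0.17 for TYROBP (unadjusted p = 0.0172, edgeR adjusted p = 0.894) and -0.32 ± 0.13 for P2RY12 (unadjusted p = 0.0251, edgeR adjusted p = 0.918). Of all genes, 0.0% passed in edgeR's test of this difference, and 1209 had an unadjusted p under 0.05. Of the 9 genes, 0 passed, so slopes of these genes were not shown to differ between prefixes.

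Correlations within prefixes went the same way. Pearson's r with DCX in the 16 libraries of prefix-2010 was -0.86 for TYROBP (permutation p = 2e-05, adjusted 0.00654), -0.75 for LY86 (permutation p = 0.00074, adjusted 0.0330) and -0.69 for P2RY12 (permutation p = 0.0021, adjusted 0.0517). By Spearman's rho these were -0.67 for TYROBP, -0.59 for LY86 and -0.54 for P2RY12, with adjusted permutation p-values of 0.108, 0.178 and 0.229, so the calls of TYROBP and LY86 in prefix-2010 rest on Pearson's r. By Pearson's r, 430 of all 19949 genes were negatively correlated with DCX in prefix-2010 at an adjusted permutation p under 0.05. In the 14 libraries of prefix-2009, r was -0.43 for LAPTM5, -0.34 for LY86, -0.25 for TMEM119 and between -0.09 and 0.25 for the other 6 genes, with permutation p-values of 0.131 or more. With both genes centred within prefix, r over 32 libraries was -0.67 for TYROBP (adjusted permutation p = 0.00807) and -0.62 for LY86 (adjusted permutation p = 0.0125), and CSF1R, ITGAM and LAPTM5 no longer passed. Centred in this way, 602 of 19949 genes were negatively correlated with DCX.

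The 5 libraries of prefix-2010 with the most DCX, 87.3 to 112.5 CPM, had 1.79 to 2.17 CPM of TYROBP. The other 11 libraries of prefix-2010, with 44.6 to 71.5 CPM of DCX, had 2.49 to 5.20 CPM. For LY86 the ranges were 2.62 to 4.08 CPM in the 5 libraries with the most DCX and 4.22 to 6.65 CPM in the other 11. Neither gene overlapped between these sets of libraries. The sets were split by DCX after the values were seen and were not tested. The split restates the correlation of both genes with DCX, and the share of all genes that also did not overlap was not computed. The other microglial genes all overlapped between the sets. For TREM2, replicate 15 of prefix-2010, the library with the most DCX, had 10.6 CPM, close to the highest level of any library, 10.8 CPM in replicate 16.

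**Figure D3:**
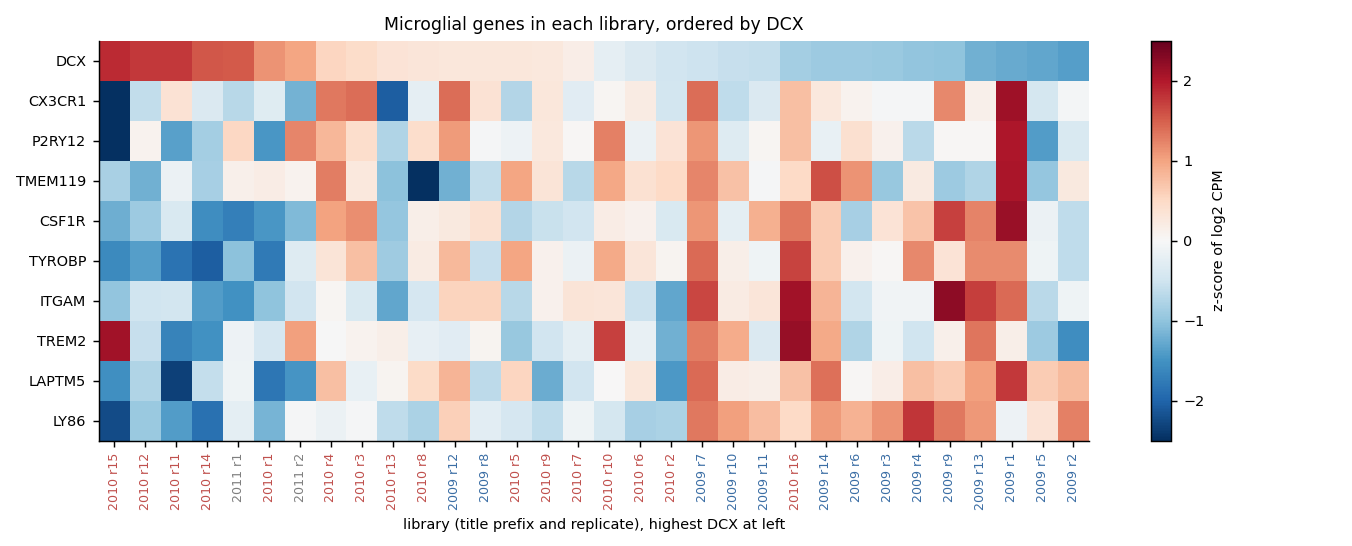
Each column is a library, ordered by DCX with the highest at left and labelled by title prefix and replicate; each cell is the z-score of log2 CPM of the gene in the row over 32 libraries. Replicate 15 of prefix-2010, at the far left with 112.5 CPM of DCX, has the lowest CX3CR1, P2RY12 and LY86 of all libraries and nearly the highest TREM2.

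Single libraries set the extremes of several genes. In replicate 15 of prefix-2010, CX3CR1 was at 6.39 CPM, P2RY12 at 37.8 CPM and LY86 at 2.62 CPM, each the lowest of 32, while TREM2 was at 10.6 CPM. In replicate 16 of prefix-2010, with 44.6 CPM of DCX, TYROBP reached 5.20 CPM and TREM2 10.8 CPM, each the highest of 32. In replicate 1 of prefix-2009, with 38.8 CPM of DCX, CX3CR1 reached 39.5 CPM, P2RY12 104.5 CPM, CSF1R 136.1 CPM and LAPTM5 20.8 CPM. TREM2 in that library was 7.06 CPM, close to the median of prefix-2009, and LY86 was 5.36 CPM, below it.

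The levels of most microglial genes were positively correlated with each other across libraries, those of TREM2 and TMEM119 least. Of 36 pairs among the 9 genes, 35 had a positive Pearson's r of log2 CPM and 16 passed at an adjusted permutation p under 0.05, each positive, with a median r of 0.46. Adjusted p-values were taken over all 19949 genes tested with the gene named first in the pair, and over all first genes 6.46% of the genes tested were positively correlated. The adjustment therefore differs between genes, and no gene at all passed with P2RY12, TMEM119 or TREM2 as the first gene. At an unadjusted permutation p under 0.05, 26 of 36 pairs were correlated. Many other genes passed that threshold in either direction, from 1215 of 19949 with TMEM119 as the first gene to 9450 with CSF1R.

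CSF1R and ITGAM were the most tightly correlated pair, at r = 0.82 (permutation p = 1e-05, adjusted 0.000162). TYROBP had the highest median r with the other 8 genes, 0.63, ahead of CSF1R with 0.60 and ITGAM with 0.59. CSF1R and TYROBP correlated at 0.75, CX3CR1 and CSF1R at 0.74, TYROBP and LAPTM5 at 0.72, and LAPTM5 and LY86 at 0.67. The receptors CX3CR1 and P2RY12 correlated at 0.64 (permutation p = 0.00019, adjusted 0.00329), but at 0.43 by Spearman's rho, which did not pass (permutation p = 0.0157, adjusted 0.0706), and at 0.48 without replicate 15 of prefix-2010. TMEM119, the gene with the fewest reads, had a median r of 0.25 with the other genes and passed with none.

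TREM2 had the lowest median r with the other 8 genes, 0.19. It correlated with ITGAM at 0.49 (permutation p = 0.00412, adjusted 0.0317) and with TYROBP at 0.42 (permutation p = 0.0184, adjusted 0.0946), but with P2RY12 at 0.14 and with CX3CR1 at -0.05. Without replicate 15 of prefix-2010 the correlation of TREM2 was 0.59 with TYROBP, 0.51 with P2RY12 and 0.18 with CX3CR1. By Spearman's rho over 32 libraries, TREM2 and CX3CR1 correlated at 0.17.

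By Pearson's r, LY86 had high correlations with the other microglial genes in prefix-2010 and low or negative ones in prefix-2009. In prefix-2010 its r was 0.83 with TYROBP, 0.80 with P2RY12, 0.76 with CSF1R and 0.60 with CX3CR1, and its median r with the other 8 genes was 0.67. In prefix-2009 its r was 0.27 with TYROBP, -0.30 with P2RY12, -0.09 with CSF1R and -0.25 with CX3CR1, and the median was 0.02. By Spearman's rho in prefix-2009 these were 0.36, -0.16, 0.16 and -0.05, with a median of 0.13. Replicate 1 of prefix-2009, with the highest CX3CR1, P2RY12 and CSF1R of all libraries, had LY86 below its prefix median, at 5.36 CPM. Correlations within prefix-2009 were not computed without that library. The difference of these correlations between prefixes was not tested. CSF1R and ITGAM passed in both, at 0.69 in prefix-2010 (adjusted permutation p = 0.0363) and 0.82 in prefix-2009 (adjusted permutation p = 0.00768). CX3CR1 and P2RY12 correlated at 0.69 in prefix-2010 (adjusted permutation p = 0.116) and at 0.84 in prefix-2009 (adjusted permutation p = 0.0251). By Spearman's rho, CSF1R and ITGAM did not pass in prefix-2010 (0.69, adjusted permutation p = 0.0786), nor CX3CR1 and P2RY12 in prefix-2009 (0.70, adjusted permutation p = 0.207). Over all 36 pairs the median r was 0.52 in prefix-2010, with 4 pairs past an adjusted permutation p of 0.05, and 0.45 in prefix-2009, with 2 such pairs. Over all first genes of a pair, 0.669% of the genes tested were positively correlated in prefix-2010 and 1.54% in prefix-2009.

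**Figure D4:**
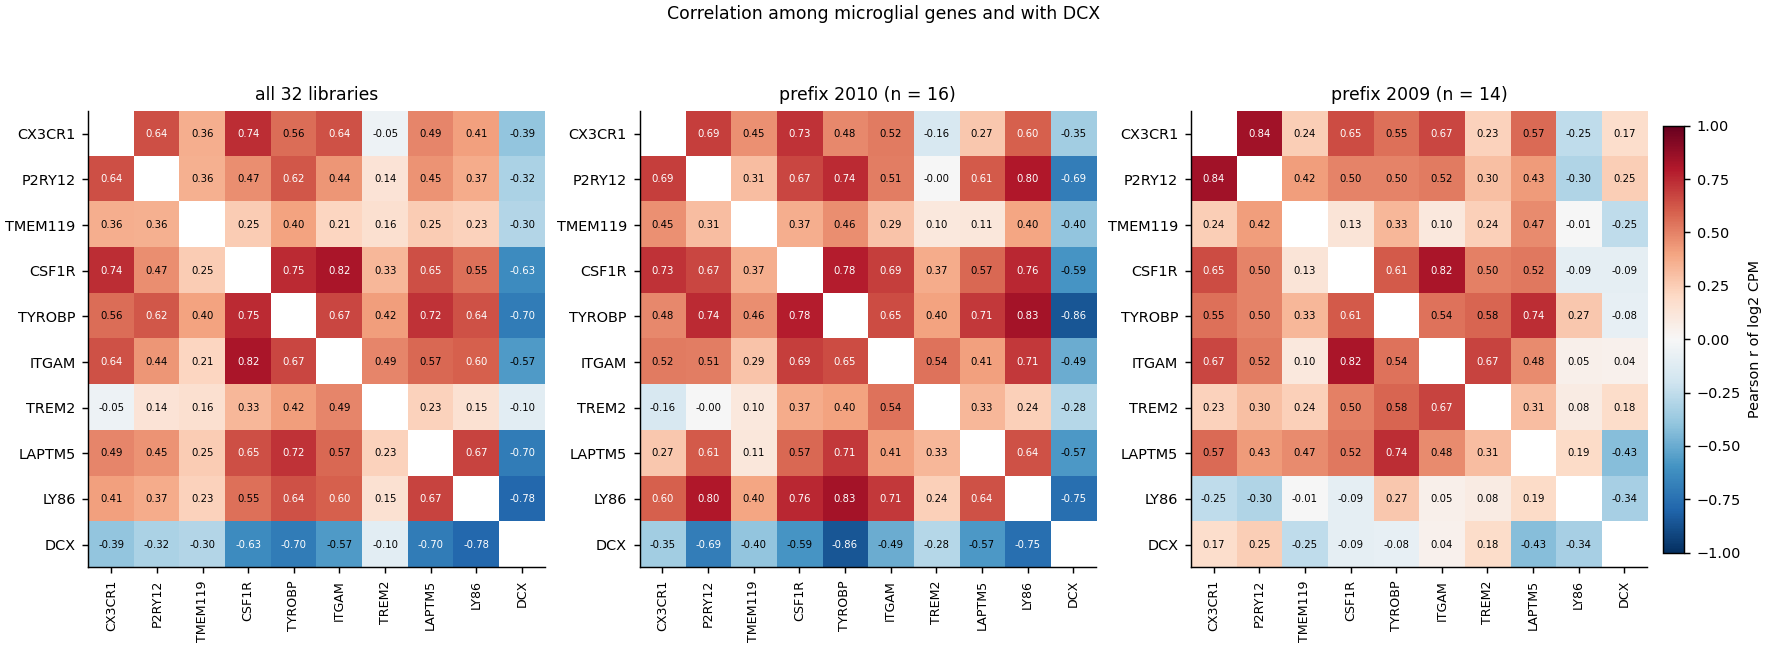
Pearson's r of log2 CPM between each pair of the 9 microglial genes and with DCX, over all 32 libraries, the 16 of prefix-2010 and the 14 of prefix-2009; red is positive and blue negative. CSF1R and ITGAM correlate in all 3 panels, from 0.69 to 0.82, whereas LY86 has a median r of 0.67 with the other 8 genes in prefix-2010 and of 0.02 in prefix-2009. By Spearman's rho, which is not drawn, the median of LY86 in prefix-2009 is 0.13.

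Within prefix-2010, the 9 libraries with high title numbers were set against the 7 with low ones. None of the 9 genes passed edgeR's test, and none had an unadjusted p under 0.05. TREM2 averaged 7.58 ± 2.21 CPM with high numbers and 6.12 ± 0.79 CPM with low ones, a log2 difference of 0.30 ± 0.16 (edgeR adjusted p = 0.417), and its spread was larger with high numbers. CX3CR1 averaged 15.98 ± 5.63 CPM with high numbers and 20.5 ± 6.79 CPM with low ones, a log2 difference of -0.36 ± 0.24 (edgeR adjusted p = 0.519). LY86 averaged 4.38 ± 1.16 CPM with high numbers and 4.55 ± 0.85 CPM with low ones. In edgeR 0.0% of 21488 genes passed in this comparison, and 3005 had an unadjusted p under 0.05. Reads outside gene features made up 55.2% ± 2.71 with high numbers and 59.1% ± 3.01 with low ones, and their part in these values was not tested.

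Genes whose products work directly with the 9 were also lower where DCX was higher, in part. Of 8 partners and signal transducers, 5 fell with DCX and 0 rose, with a median slope of -0.16. They were INPP5D, a lipid phosphatase that dampens TREM2 signalling, with a slope of -0.24 ± 0.06 (edgeR adjusted p = 0.00242), and the tyrosine phosphatase PTPN6 at -0.18 ± 0.04 (edgeR adjusted p = 0.000911). ITGB2, the beta chain that pairs with ITGAM, had -0.19 ± 0.05, the kinase SYK, which binds phosphorylated TYROBP, -0.15 ± 0.05, and the receptor CD84 -0.21 ± 0.07. PLCG2, VAV1 and HCST had slopes of -0.03, -0.03 and 0.03 and did not pass. Between prefixes, 0 of these 8 genes passed in edgeR's test, DESeq2 or limma, and the median log2 difference was -0.20. In edgeR 3 had an unadjusted p under 0.05, beside 6522 of all 23977 genes. With log2 library size as a covariate 2 of the 8 were lower, and without replicate 16 of prefix-2010 1 was.

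Other homeostatic genes were split. Among the 11 tested, those that fell with DCX included SELPLG, P2RY13 and GPR34, and SLC2A5 rose, with a median slope of -0.07. SELPLG, the ligand of P-selectin, had a slope of -0.27 ± 0.05 (edgeR adjusted p = 2.9e-05), and P2RY13, a purinergic receptor next in kind to P2RY12, -0.19 ± 0.05 (edgeR adjusted p = 0.00772). P2RY13 was also lower in prefix-2010, at 11.5 ± 2.47 CPM against 14.6 ± 3.21 CPM in prefix-2009 (edgeR adjusted p = 0.0331), the only one of 12 homeostatic genes to pass there. It did not pass without replicate 13 of prefix-2010, at an edgeR adjusted p of 0.0506, or with scaling by library totals, at 0.0619, and among libraries with low title numbers its log2 difference was -0.19 (edgeR adjusted p = 0.445). SLC2A5, a fructose transporter of microglia, rose with DCX by 0.22 ± 0.06 (edgeR adjusted p = 0.00840). Its slope was 0.15 and no longer passed without replicate 15 of prefix-2010, where SLC2A5 had its highest level, 22.1 CPM. SALL1, a transcription factor of microglial identity, had a slope of -0.05 ± 0.07.

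Of 6 genes for ligands of microglial receptors, 3 were lower where DCX was higher. The receptors of TGFB1 and CD200 are not among the microglial genes studied here. CSF1, a ligand of CSF1R, had a slope of -0.19 ± 0.05 (edgeR adjusted p = 0.00271), and the lipoprotein clusterin (CLU), which TREM2 binds, -0.21 ± 0.04 (edgeR adjusted p = 2.7e-05). TGFB1, which maintains microglial identity, had -0.18 ± 0.07 (edgeR adjusted p = 0.0405) and was past the threshold in 21 of 32 fits that left out 1 library, with a slope of -0.14 without replicate 15 of prefix-2010 and of -0.15 without replicate 1 of prefix-2009. IL34, the other ligand of CSF1R, had -0.10 ± 0.05, CX3CL1, the ligand of CX3CR1, -0.02 ± 0.04 and CD200 0.02 ± 0.04, and none of them passed. Of 7 myeloid transcription factors, IKZF1 fell at -0.21 ± 0.07 and MEF2A rose at 0.08 ± 0.02, while SPI1, the master regulator of the lineage, had -0.11 ± 0.06 (edgeR adjusted p = 0.163). IKZF1 did not pass without replicate 1 of prefix-2009, at a slope of -0.14, or without replicate 1 of prefix-2011, at -0.19.

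Complement genes went both ways. C1QA, C1QB and C1QC, the subunits of the initiator of the classical pathway, rose with DCX with slopes of 0.28 ± 0.08, 0.29 ± 0.06 and 0.20 ± 0.06, whereas C3, the central component, fell with a slope of -0.35 ± 0.05 (edgeR adjusted p = 7.5e-06). Replicate 15 of prefix-2010 had the highest C1QA and C1QB of all libraries, 24.03 and 26.1 CPM, and without it the slopes of C1QA and C1QC, 0.20 and 0.14, no longer passed. Between prefixes, C1QA and C1QB were higher in prefix-2010 by 0.49 ± 0.15 and 0.43 ± 0.14 on the log2 scale and C3 lower by 0.52 on that scale. Both C1Q calls were lost without that library, and C1QB passed in 19 of the 32 fits that left out 1 library, with edgeR adjusted p-values of 0.0211 to 0.0732. Among libraries with low title numbers none of the 3 differences passed, with 0.23 for C1QA, 0.38 for C1QB and -0.46 for C3 (edgeR adjusted p = 0.411, 0.0790 and 0.0723).

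Genes linked to activated and antigen-presenting microglia went both ways along DCX. Counts came from whole tissue, so values of these genes, and of the other lists, cannot be assigned to microglia. Of 12 activation genes, IGF1 and LPL rose and GPNMB, IL1B and SPP1 fell, with a median slope of 0.05. LPL passed in 30 of the 32 fits that left out 1 library, and not without replicate 12 of prefix-2010 or replicate 1 of prefix-2011. IGF1, a growth factor, had a slope of 0.33 ± 0.03 (edgeR adjusted p = 8.7e-11), and GPNMB, a glycoprotein of lipid-laden macrophages, -0.64 ± 0.10 (edgeR adjusted p = 1.7e-05). In prefix-2010 IGF1 had 40.4 ± 11.5 CPM against 29.95 ± 4.18 CPM in prefix-2009, and GPNMB 5.85 ± 2.56 CPM against 12.4 ± 8.45 CPM in prefix-2009, and both differences passed in edgeR. Of 5 antigen presentation genes, CD74, the invariant chain of class II molecules, had the steepest slope, -0.59 ± 0.08 (edgeR adjusted p = 1.2e-06). CD86 and B2M also fell, B2M in 25 of the 32 fits that left out 1 library, CD40 rose at 0.34 ± 0.10, and the median slope was -0.20. CD74 spanned 7.41 CPM in replicate 15 of prefix-2010 to 60.1 CPM in replicate 16 of prefix-2010. With title prefix as a factor, the counts past edgeR's threshold were smaller: 2 of 8 partners, 2 of 12 other homeostatic genes, 1 of 6 ligands and 1 of 5 antigen presentation genes fell with DCX and 0 rose, 0 of 5 complement genes rose and 1 fell, and 1 of 12 activation genes rose and 1 fell. The genes still called included PTPN6, ITGB2, SELPLG, CLU, CD74, C3, GPNMB and IGF1.

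**Figure D5:**
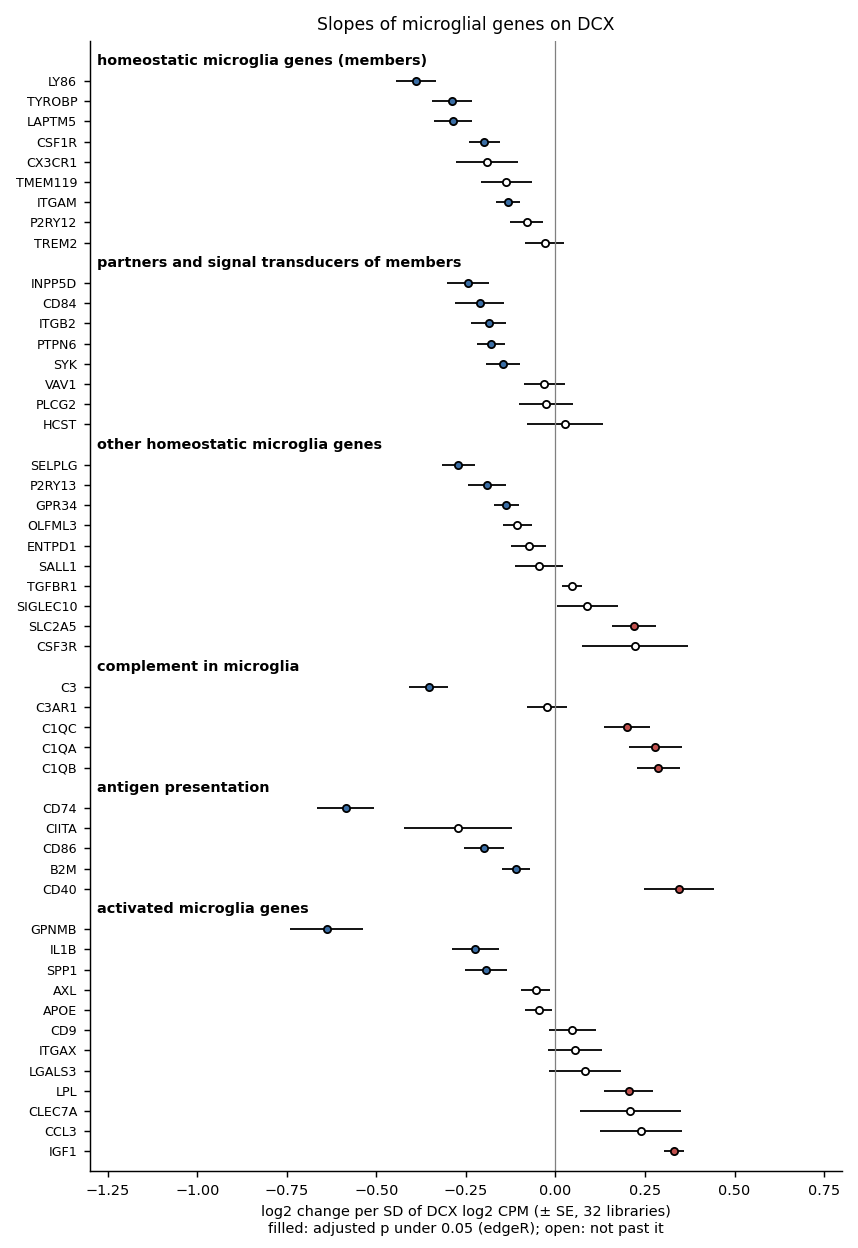
Slope of each gene on DCX (log2 change per standard deviation of DCX ± SE, 32 libraries) for the 9 microglial genes and 5 lists of related genes; filled points passed edgeR's test at an adjusted p under 0.05 and open ones did not. The 9 microglial genes run from -0.39 for LY86 to -0.03 for TREM2, while C1QB at 0.29 and IGF1 at 0.33 lie on the other side of 0.

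Markers of other cells moved with DCX as well, and their part in the results was not tested. Of 5 border macrophage genes tested, LYVE1 and CD163 rose with DCX, LYVE1 by 0.46 ± 0.09 (edgeR adjusted p = 0.000178). With title prefix as a factor neither passed, at 0.36 for LYVE1 and 0.12 for CD163 (edgeR adjusted p = 0.0793 and 0.280), and CD163 had 0.064 without the 2 libraries farthest in DCX (edgeR adjusted p = 0.394). The 6 genes of that list summed to 41.3 to 86.6 CPM in prefix-2010 and 36.0 to 80.1 CPM in prefix-2009. Of the mature neuron list, 4 of 6 genes fell and 0 rose, and of the mature myelin list 2 of 7 fell. Of the endothelial list 4 of 5 genes rose and 0 fell, and of the mural and fibroblast list 5 of 7 rose. Oligodendrocyte precursor and cell division genes each rose in 4 of 5, and of 6 astrocyte genes 1 rose and 2 fell. Of all 22524 genes tested, 2699 rose and 2766 fell. Within prefix-2010, 0 endothelial, 1 mural and fibroblast, 1 oligodendrocyte precursor and 0 cell division genes rose. The 1 of 6 monocyte and neutrophil genes tested along DCX rose, and a single gene is no measure of these cells. Of 3 tested between prefixes 0 passed, with a median log2 difference of 1.51. The 9 microglial genes summed to 150.7 to 284.4 CPM in prefix-2010, 195.2 and 213.4 CPM in prefix-2011, and 201.4 to 343.5 CPM in prefix-2009.

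The genes most like the microglial group across libraries were sought among 19523 other genes by Pearson's r with the mean z-score of the 9 genes over 32 libraries. The 12 with the highest r were, in order, INPP5D, PTGDS, SELPLG, C3, ZBTB4, TLR7, OAF, LOC103238287, RASAL3, CD80, LOC103234994 and LGI4. Their r was between 0.85 for LGI4 and 0.89 for INPP5D, against a median of -0.02 over all genes compared. PTGDS, the prostaglandin D synthase of glia and meninges, had r = 0.88, with 0.93 in prefix-2010 and 0.71 in prefix-2009. INPP5D correlated with the group at 0.85 in prefix-2010 and 0.88 in prefix-2009, whereas OAF did so at 0.96 in prefix-2010 and 0.62 in prefix-2009. The microglial mean itself correlated with DCX at -0.70. For genes chosen for such a high r with that mean, a negative r with DCX follows from the choice. Among the 12 it ran from -0.58 for INPP5D to -0.86 for LGI4.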

How the data were processed

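The authors deposited raw read counts per gene for 32 hippocampal libraries in 1 table, which also holds 5 rows of reads assigned to no gene, left out here of library sizes and tests. Reads were aligned with STAR and counted with HTSeq, per the submitters' processing notes, for which no version, genome build or strand setting is stated. Libraries came from a stranded kit after removal of ribosomal RNA, per the labels' protocols. Rows were named by symbol, and 825 by gene number through RefSeq's table for vervet. Groups were taken from the first digits and the second number of each title, which are no shared replicate numbers. No pair of libraries agreed within sampling noise (lowest chi-square per degree of freedom 4.348 over 496 pairs).

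Counts were tested with edgeR 4.0.16 in R 4.3.3 (quasi-likelihood, robust, TMM scaling). Genes were kept by edgeR's filter with a minimum count of 10, a minimum total of 15 and a minimum proportion of 0.7. P-values were adjusted over all genes tested by Benjamini-Hochberg, with a threshold of 0.05. DESeq2 1.42.0 and limma 3.58.1 served as alternatives. The slope on DCX used its log2 CPM (prior count 2), and in fits within prefixes it kept the same unit. Correlations used two-sided permutation tests with 100000 resamples (scipy 1.17.1, numpy 2.4.6). The edgeR fits of the prefix difference, the slope on DCX and the title numbers were tested on simulated data first, as was the correlation test. Slopes within prefixes, their difference, permutation within prefixes, DESeq2 and limma were not tested in this way.

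The members and lists were chosen with earlier results of these data known. Named besides the members and DCX are, of each list, the genes called between prefixes or along DCX, at most 4 by smallest p, and the 12 genes most like the members among those with a mean of at least 1 CPM. Of 2 lists, 1 gene each is counted in the list but not reported here singly or drawn. Other list members named with values were chosen after those values were seen. Alternatives were other scalings, filters and tools, covariates, subsets of libraries and leaving out each library in turn.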

Additional observations from a re-analysis of the deposited data

Results flagged for a closer look

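ITGAM in replicate 16 of prefix-2010 was at 23.82 CPM, far from the other 8 libraries of that prefix with high title numbers, of which the next was at 18.1 CPM. The gap was 0.582 of the range of these 9 libraries. This was 1 of 20 sets of values examined in this way, and chance flags about 1 in 20. The same library had the highest TYROBP and TREM2 of all 32 libraries, 5.20 and 10.8 CPM, and the lowest DCX of prefix-2010, 44.6 CPM.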

How the results depend on the processing

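The count of microglial genes lower in prefix-2010 than in prefix-2009 was 2 in the reported fit, 2 or 3 with other scalings, filters, DESeq2 or limma, 4 with log2 library size as a covariate and 0 with DCX as a covariate, and between 2 and 4 with each library left out in turn. CSF1R and ITGAM account for the changes on leaving out a library, with edgeR adjusted p-values of 0.0306 to 0.133 and 0.00754 to 0.105. The count falling with DCX was 5 in the reported fit and in each fit without 1 library, 6 with the share of reads outside features as a covariate or an immature neuron score in place of DCX, 3 among libraries with low title numbers and 2 with title prefix as a factor. With both genes centred within prefix, 2 in place of 5 genes correlated with DCX and 10 in place of 16 pairs with each other. In that setting 602 of all 19949 genes were negatively correlated with DCX. Positively correlated genes ran from 0 with TMEM119 as the first gene of a pair to 2168 with CSF1R. Within prefix-2010 the count falling with DCX was 3 in the reported fit, 4 with the share of reads outside features as a covariate and between 1 and 3 without replicate 15 or 16 of prefix-2010 or replicate 1 of prefix-2009, fits added after seeing the data. The causes were not tested.

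Signs reversed for some values, of which IGF1 alone had passed. With DCX as a covariate, the log2 difference between prefixes was 0.11 for P2RY12, 0.16 for TMEM119, 0.21 for TYROBP and 0.088 for TREM2, and that of IGF1 was -0.11. TREM2 had 0.025 with library totals, 0.0052 with library size as a covariate and -0.062 to 0.030 with 1 library left out. ITGAM had a slope of 0.00048 in prefix-2009 with the share of reads outside features as a covariate, and a difference of -0.026 between high and low title numbers with DCX as one. CX3CR1 and TREM2 correlated at 0.17 by Spearman's rho and at 0.17 without the 2 libraries farthest in DCX, an alternative added after seeing the data. In the added fits that left out 1 of the 3 libraries, the slope in prefix-2009 was -0.081 to 0.0071 for CSF1R and -0.0043 to 0.029 for ITGAM, and the difference of slopes was -0.085 to 0.054 for TMEM119. The difference between high and low title numbers in those fits was -0.058 to 0.052 for P2RY12, -0.041 to 0.054 for ITGAM and -0.16 to 0.0043 for LY86.

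Over all genes, 676 were higher and 470 lower in prefix-2010 among libraries with low title numbers, 1 and 0 with DCX as a covariate, and 2575 and 1952 with library size as one, against 1696 and 1268. With title prefix as a factor 700 genes rose and 779 fell with DCX, and 1124 and 1028 among low title numbers, against 2699 and 2766. Over 32 libraries, 3660 rose and 3506 fell with the share of reads outside features as a covariate. With the immature neuron score in place of DCX, 3656 rose and 3690 fell. With the share of reads outside features as a covariate, 959 rose and 1060 fell within prefix-2010, against 458 and 590, and 137 and 69 within prefix-2009, against 52 and 23. No paired analysis was possible because the titles carry no shared replicate numbers. Depth limits TMEM119 most, at 16 to 67 counts per library.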

Other observations

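Lysosomal and phagocytic genes moved both ways along DCX. Of 8 tested, the proteases CTSZ and CTSD and the glycoprotein CD68 fell, with slopes of -0.15 ± 0.03, -0.14 ± 0.04 and -0.10 ± 0.03 (SE, edgeR adjusted p = 0.000708, 0.00500 and 0.0273), and PROS1, a bridging ligand for phagocytosis, rose at 0.20 ± 0.05 (edgeR adjusted p = 0.00640). With title prefix as a factor CTSZ alone passed, and CD68 had -0.15, CTSD -0.071 and PROS1 0.14 (edgeR adjusted p = 0.0553, 0.499 and 0.319). CD68 also lost its call with library totals, at -0.086 (edgeR adjusted p = 0.0911). CTSD was also lower in prefix-2010, at 96.9 ± 14.9 CPM (SD, n = 16), than in prefix-2009, at 115.4 ± 16.04 CPM (SD, n = 14), with an edgeR adjusted p of 0.0235. It did not pass among libraries with low title numbers, at an adjusted p of 0.178.

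Of 5 interferon genes, IFIT1 and IFIT3 fell with DCX, with slopes of -0.31 ± 0.06 and -0.14 ± 0.05 (edgeR adjusted p = 0.000162 and 0.0249; IFIT3 did not pass with title prefix as a factor, at -0.20 and an adjusted p of 0.0558), while MX1 and ISG15 had slopes of 0.10 and 0.15 and did not pass. IFIT1 averaged 9.53 ± 2.80 CPM in prefix-2010 and 12.5 ± 3.47 CPM in prefix-2009, and this difference did not pass in edgeR (adjusted p = 0.0688). The T-cell receptor subunit CD3E fell with DCX at -0.35 ± 0.08 (edgeR adjusted p = 0.000799). It was also lower in prefix-2010, at 2.38 ± 0.77 CPM, than in prefix-2009, at 3.50 ± 1.16 CPM (edgeR adjusted p = 0.0220). CD3D, by contrast, had a median count of 0 over all 32 libraries. LYVE1, a receptor of border macrophages and lymphatic vessels, was higher in prefix-2010, at 6.90 ± 1.71 CPM, than in prefix-2009, at 4.28 ± 2.64 CPM (edgeR adjusted p = 0.0233). Among libraries with low title numbers neither CD3E nor LYVE1 passed in edgeR, with adjusted p-values of 0.239 and 0.175.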
